A study of Arabidopsis thaliana with 12 samples.

Results

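The genes described here are 39 Arabidopsis thaliana loci of the jasmonate pathway, out of 27827 loci with a value on the arrays. They were chosen by name, as loci for jasmonate synthesis, activation, perception, repression, breakdown and response, and all 39 had a value on every array. Whole seedlings of 4 genotypes were sampled after 4 days of growth in the dark at 22 °C, with 3 arrays each, lettered A, B and C. All of them also had 48 h of cold and 6 h of white light (100 µmol). Col-0 is the wild type. PMEIox is a transformant in Col-0 that overexpresses PMEI5, an inhibitor of the pectin methylesterases that trim methyl groups from wall pectin. The lines cnu1 and cnu2 are PMEIox plants that also carry a mutation suppressing the PMEIox phenotype, known to lie in the brassinosteroid receptor gene BRI1 in cnu1 and in the receptor-like protein gene RLP44 in cnu2. All genotypes thus share the Col-0 strain, and the transgene is common to PMEIox, cnu1 and cnu2. The labels give no promoter for the transgene, no number of independent lines and no tissue finer than the seedling.

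Jasmonates are lipid hormones made from plastid membrane fatty acids when tissue is wounded, attacked or, in some organs, as it develops. Lipoxygenases, allene oxide synthase and allene oxide cyclases act in the plastid, and a reductase and rounds of beta-oxidation in the peroxisome finish jasmonic acid, which JAR1 joins to isoleucine. The conjugate brings the receptor COI1 together with JAZ proteins, which are then degraded, so that MYC factors are released to switch on response genes, among them those for new JAZ proteins and for enzymes that break the hormone down.

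PMEI5 was read first, to check which arrays carry the transgene. PMEI5 cannot tell PMEIox, cnu1 and cnu2 apart, so that the labels among these lines stay unchecked. It stood between 12.53 and 12.69 on the log2 scale on the 9 arrays of PMEIox, cnu1 and cnu2, and at 8.19, 5.05 and 4.49 on arrays A, B and C of Col-0, so that Col-0 A stands apart from the other arrays of its group. Calls in PMEIox against Col-0 are therefore also given without that array. The etiolated seedling markers PORA (8.36 to 9.46 over the 12 arrays) and PIF3 (8.55 to 9.09) were high on all arrays and the light-harvesting gene LHCB1.1 was low (2.14 to 3.00), while RBCS1A, another gene of light-grown tissue, was at 13.16 or above throughout. In whole seedlings, fewer cells of a type and less transcript per cell cannot be told apart.

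The main change among the jasmonate genes was in JR1, a jasmonate-responsive lectin gene whose transcript was 4.03-fold lower in PMEIox than in Col-0 and 3.92-fold and 3.03-fold higher in cnu1 and cnu2 than in PMEIox. Smaller differences, of 1.29-fold to 1.71-fold, were called for 8 other members: AOS, JAZ2, JAZ3, JAZ7, JAZ10, CYP94B3, VSP1 and VSP2. JAZ10 and CYP94B3 rose in PMEIox, whereas JR1, VSP1, AOS and JAZ3 fell. The other 30 members were not called in any of the 6 comparisons between genotypes. By comparison, 6 members were called in PMEIox against Col-0, 8 in cnu1 against PMEIox and 1 in cnu2 against PMEIox. Of all loci, 2.79% were called higher and 2.46% lower in PMEIox against Col-0. Against PMEIox these shares were 3.54% and 2.9% in cnu1 and 1.78% and 1.48% in cnu2. A member is called where limma's adjusted p is under 0.05 over all loci.

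**Figure D1:**
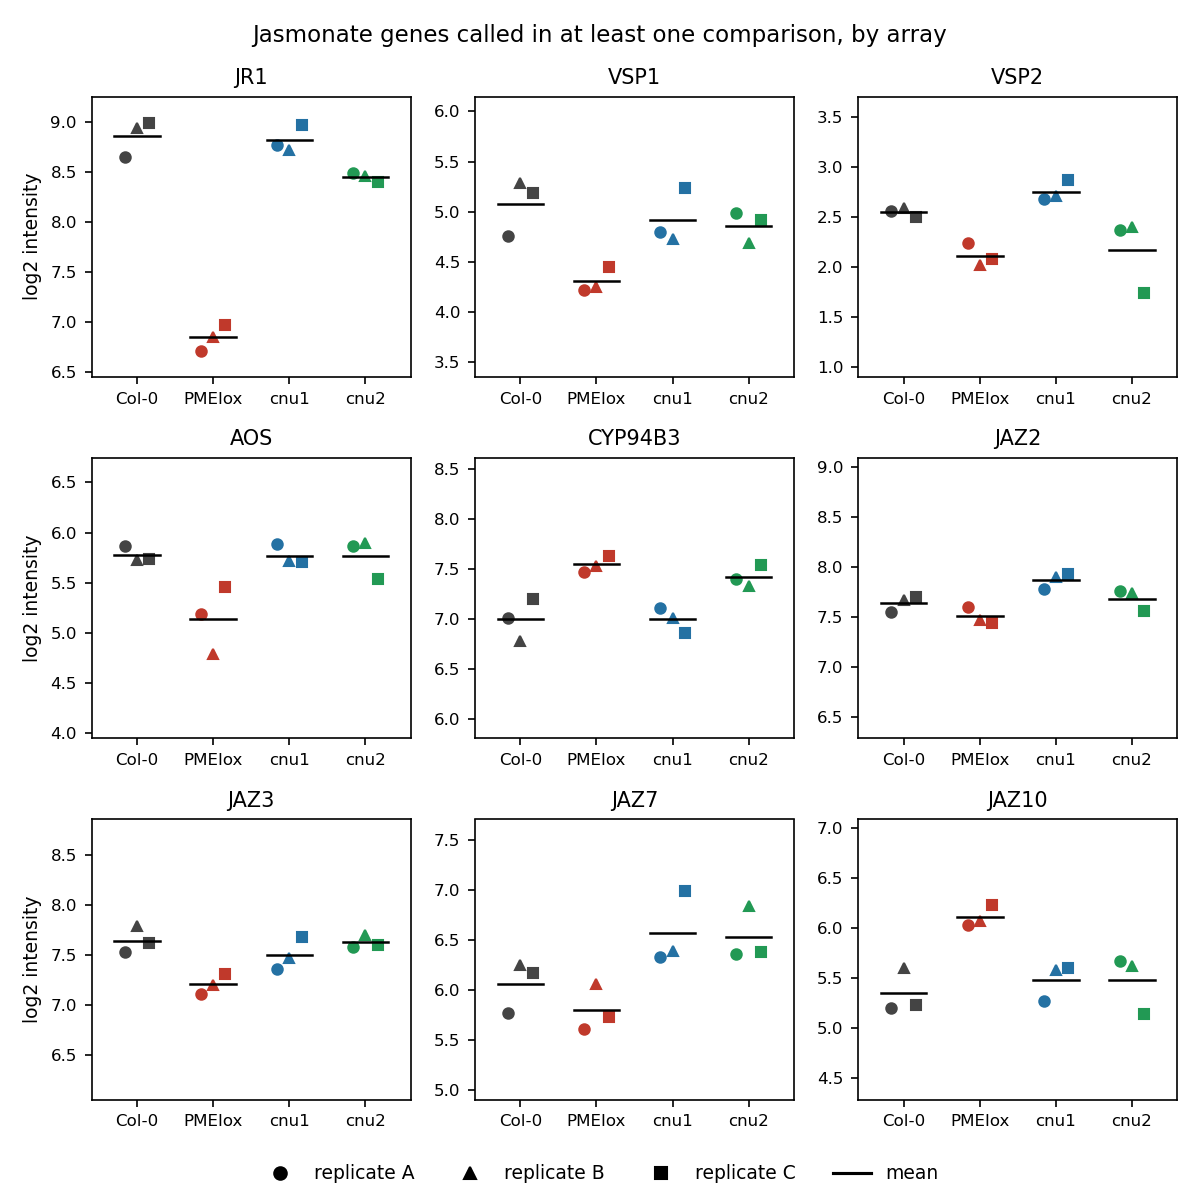
Log2 intensity (vertical axis, each panel spanning the same range of log2 units) of the 9 called jasmonate genes on each array of the 4 genotypes, with marker shape for the replicate letter and a line for the mean. JR1 lies between 6.72 and 6.98 in PMEIox and at 8.40 or above in every array of the other genotypes.

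Among the response genes, JR1 (AT3G16470) had by far the clearest difference. Its values were 8.65, 8.94 and 8.99 in Col-0 A, B and C and 6.72, 6.86 and 6.98 in PMEIox. They were 8.78, 8.72 and 8.97 in cnu1 and 8.50, 8.46 and 8.40 in cnu2. PMEIox lay below all 9 other arrays with no overlap, and the 3 cnu2 arrays lay below all arrays of Col-0 and cnu1. JR1 fell by 2.01 ± 0.12 (SE, adjusted p = 3.31e-06) in PMEIox against Col-0, which placed it 13th from the lowest of all loci, and by 2.12 without Col-0 A (adjusted p = 6.38e-06). Against PMEIox it rose by 1.97 ± 0.12 (SE, adjusted p = 2.58e-06) in cnu1 and by 1.60 ± 0.12 (SE, adjusted p = 2.92e-05) in cnu2. The log2 difference from Col-0 was -0.04 in cnu1 (95% interval -0.29 to 0.21, adjusted p = 0.92) and -0.41 in cnu2 (95% interval -0.66 to -0.16, adjusted p = 0.205). Between the suppressors JR1 differed by 0.37 (cnu1 minus cnu2, 95% interval 0.12 to 0.62, adjusted p = 0.296), which did not pass the test.

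The vegetative storage protein genes VSP1 (AT5G24780) and VSP2 (AT5G24770), classical jasmonate-induced acid phosphatase family genes, are neighbours on the chromosome. VSP1 stood at 4.75, 5.28 and 5.19 in Col-0, 4.22, 4.25 and 4.45 in PMEIox, 4.79, 4.72 and 5.23 in cnu1 and 4.99, 4.68 and 4.92 in cnu2. The PMEIox arrays were again the lowest, and those of Col-0, cnu1 and cnu2 overlapped. VSP1 fell by 0.77 ± 0.17 (SE, adjusted p = 0.0179) in PMEIox against Col-0 and rose by 0.61 ± 0.17 (SE, adjusted p = 0.0477) in cnu1 against PMEIox. In cnu2 it differed from PMEIox by 0.56 (95% interval 0.20 to 0.92, adjusted p = 0.0976). VSP2 stood at 2.56, 2.58 and 2.49 in Col-0, 2.24, 2.02 and 2.08 in PMEIox, 2.68, 2.71 and 2.87 in cnu1 and 2.37, 2.40 and 1.74 in cnu2. Its values lay low on the scale of these arrays, within the lowest 40% of loci, where a difference may be compressed. VSP2 rose by 0.64 ± 0.15 (SE, adjusted p = 0.0293) in cnu1 against PMEIox, and in PMEIox against Col-0 it differed by -0.43 (adjusted p = 0.147). Its cnu2 values overlapped those of PMEIox (log2 difference 0.05, 95% interval -0.28 to 0.39), while cnu1 lay 0.58 above cnu2 (95% interval 0.25 to 0.92), a difference that did not pass the test over all loci (adjusted p = 0.175). The remaining response genes, CORI3 (AT4G23600), a cystine lyase gene, and TAT3 (AT2G24850), a tyrosine aminotransferase gene, were not called in any comparison. TAT3 averaged 3.51 ± 0.19 in Col-0, 3.40 ± 0.19 in PMEIox, 3.07 ± 0.15 in cnu1 and 3.11 ± 0.28 in cnu2 (SD, n = 3 each).

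Of the 12 synthesis genes, 1 was called in any comparison. This was AOS (AT5G42650), which encodes allene oxide synthase, the enzyme that commits the lipoxygenase product to jasmonate synthesis. AOS stood at 5.86, 5.72 and 5.74 in Col-0, 5.18, 4.79 and 5.45 in PMEIox, 5.88, 5.71 and 5.70 in cnu1 and 5.87, 5.90 and 5.53 in cnu2. All PMEIox arrays lay below all others, although they were spread more widely than those of Col-0 and cnu1. AOS fell by 0.63 ± 0.16 (SE, adjusted p = 0.0361) in PMEIox against Col-0 and rose by 0.62 ± 0.16 (SE, adjusted p = 0.0341) in cnu1 against PMEIox. Of all loci, 2.46% were called lower in PMEIox against Col-0 and 3.54% higher in cnu1 against PMEIox. In cnu2 the AOS difference from PMEIox was of the same size, 0.62 (95% interval 0.29 to 0.96), with an adjusted p of 0.0515. The difference of cnu1 from Col-0 was -0.01 (95% interval -0.35 to 0.33), and that of cnu2 from Col-0 was also -0.01 (95% interval -0.35 to 0.33).

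The other synthesis genes gave values but no call. DAD1 (AT2G44810), a phospholipase gene that releases the fatty acid precursor, averaged 4.30 ± 0.23 in Col-0, 3.86 ± 0.16 in PMEIox, 4.26 ± 0.22 in cnu1 and 4.32 ± 0.04 in cnu2 (SD, n = 3 each), and its difference in PMEIox against Col-0 was -0.45 (adjusted p = 0.0979). The allene oxide cyclase genes AOC1 (AT3G25760), AOC2 (AT3G25770) and AOC3 (AT3G25780) lie side by side, and their sequences are closely related, so that signal shared between their probes was not tested. AOC1 stood at 4.07, 3.45 and 3.34 in Col-0 and at 2.81, 3.13 and 3.07 in PMEIox, with no overlap, and differed by -0.61 (adjusted p = 0.138). AOC2 lay between 1.39 and 1.88 on all 12 arrays, near the bottom of the scale, AOC3 between 4.75 and 5.59 and AOC4 (AT1G13280) between 8.01 and 8.40. None of the cyclase genes was called in PMEIox or a suppressor. The 13-lipoxygenase genes LOX2 (AT3G45140), LOX3 (AT1G17420), LOX4 (AT1G72520) and LOX6 (AT1G67560) differed between PMEIox and Col-0 by -0.18, -0.12, -0.20 and -0.03. OPR3 (AT2G06050), the peroxisomal reductase gene, stood at 5.80, 6.12 and 5.82 in Col-0, 5.93, 6.01 and 6.05 in PMEIox, 6.03, 5.94 and 5.94 in cnu1 and 5.93, 6.03 and 6.07 in cnu2. The 4 genotypes overlapped, and the PMEIox difference of OPR3 from Col-0 was 0.08 (95% interval -0.14 to 0.30). OPCL1 (AT1G20510), which encodes the ligase that readies the reductase product for beta-oxidation, differed by -0.11.

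The genes for hormone activation and perception, JAR1 and COI1, were not called in any comparison. JAR1 (AT2G46370) stood at 7.22, 7.10 and 7.07 in Col-0, 6.93, 7.00 and 7.10 in PMEIox, 6.91, 7.16 and 7.03 in cnu1 and 7.09, 7.04 and 6.94 in cnu2. COI1 (AT2G39940) stood at 7.77, 7.78 and 7.86 in Col-0, 7.69, 7.76 and 7.50 in PMEIox, 7.68, 7.77 and 7.63 in cnu1 and 7.65, 7.80 and 7.85 in cnu2. The JAR1 arrays of the 4 genotypes overlapped, while for COI1 the highest PMEIox array lay just below the lowest of Col-0 and both suppressors overlapped PMEIox. JAR1 differed by -0.11 in PMEIox against Col-0 (95% interval -0.33 to 0.10, adjusted p = 0.598) and COI1 by -0.15 (95% interval -0.37 to 0.06, adjusted p = 0.461). Against PMEIox, JAR1 and COI1 differed by 0.02 and 0.04 in cnu1 and by 0.01 and 0.12 in cnu2, all uncalled.

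The 12 JAZ repressor genes did not move as one group. In PMEIox against Col-0, JAZ10 rose, JAZ3 fell and 10 were not called, with a median of -0.09, beside 2.79% and 2.46% of all loci. In cnu1 against PMEIox, JAZ2 and JAZ7 rose, JAZ10 fell and 9 were not called (median 0.12). The shares of all loci there were 3.54% and 2.9%. In cnu2 against PMEIox 0 were called (median 0.11), beside 1.78% of all loci higher and 1.48% lower. At an unadjusted p under 0.05 there were 3, or 25%, beside 16.8% of all loci.

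JAZ10 (AT5G13220), a repressor gene that is itself induced by the hormone, was the member with the largest rise in PMEIox. It stood at 5.21, 5.61 and 5.24 in Col-0, 6.03, 6.07 and 6.23 in PMEIox, 5.27, 5.58 and 5.60 in cnu1 and 5.68, 5.63 and 5.14 in cnu2. PMEIox exceeded all 9 other arrays. JAZ10 rose by 0.76 ± 0.16 (SE, adjusted p = 0.0163) in PMEIox against Col-0 and fell by 0.63 ± 0.16 (SE, adjusted p = 0.038) in cnu1 against PMEIox. In cnu2 the difference from PMEIox was -0.63 (95% interval -0.98 to -0.28, adjusted p = 0.0559). JAZ3 (AT3G17860) took the opposite course to JAZ10 in PMEIox. It stood at 7.53, 7.79 and 7.62 in Col-0, 7.12, 7.20 and 7.32 in PMEIox, 7.36, 7.47 and 7.69 in cnu1 and 7.58, 7.70 and 7.60 in cnu2. JAZ3 fell by 0.44 ± 0.11 (SE, adjusted p = 0.0405) in PMEIox, and differed from PMEIox by 0.29 in cnu1 (adjusted p = 0.15) and by 0.42 in cnu2 (adjusted p = 0.0654).

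JAZ7 had its highest arrays in both suppressors and JAZ2 in cnu1. JAZ7 (AT2G34600) stood at 5.77, 6.25 and 6.17 in Col-0, 5.61, 6.06 and 5.73 in PMEIox, 6.33, 6.39 and 7.00 in cnu1 and 6.36, 6.84 and 6.38 in cnu2. Both suppressors lay above all arrays of Col-0 and PMEIox, which overlapped each other. JAZ7 rose by 0.77 ± 0.20 (SE, adjusted p = 0.0449) in cnu1 against PMEIox, and in cnu2 the difference was 0.73 (95% interval 0.28 to 1.17, adjusted p = 0.0833). Its differences from Col-0, 0.51 in cnu1 and 0.46 in cnu2, did not pass (adjusted p = 0.286 and 0.42). JAZ2 (AT1G74950) stood at 7.55, 7.67 and 7.71 in Col-0, 7.60, 7.48 and 7.45 in PMEIox, 7.79, 7.90 and 7.93 in cnu1 and 7.76, 7.74 and 7.56 in cnu2. The cnu1 arrays were above all others, and JAZ2 rose by 0.36 ± 0.09 (SE, adjusted p = 0.0405) in cnu1 against PMEIox. With the replicate letter as a block that call was lost (adjusted p = 0.0587). The cnu2 arrays of JAZ2 overlapped those of Col-0, and its differences from Col-0 were 0.23 in cnu1 (adjusted p = 0.297) and 0.04 in cnu2 (adjusted p = 0.914). The remaining repressor genes, JAZ1 (AT1G19180), JAZ4 (AT1G48500), JAZ5 (AT1G17380), JAZ6 (AT1G72450), JAZ8 (AT1G30135), JAZ9 (AT1G70700), JAZ11 (AT3G43440) and JAZ12 (AT5G20900), had log2 differences in PMEIox against Col-0 from -0.34 for JAZ9 to 0.29 for JAZ6. JAZ5 (2.39 to 3.29 over all arrays) and JAZ8 (1.48 to 2.25) lay within the lowest 40% of loci.

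The MYC factors, basic helix-loop-helix proteins that the JAZ repressors hold inactive, were not called in any comparison. MYC2 (AT1G32640) stood at 4.16, 4.09 and 3.80 in Col-0, 3.67, 3.63 and 3.91 in PMEIox, 4.20, 4.16 and 3.93 in cnu1 and 3.95, 3.59 and 3.78 in cnu2. Col-0 and PMEIox overlapped, as did Col-0 and cnu1. The difference of PMEIox from Col-0 was -0.28 (95% interval -0.57 to 0.01, adjusted p = 0.297), and that of cnu1 from PMEIox 0.36 (95% interval 0.07 to 0.65, adjusted p = 0.151). For MYC3 (AT5G46760) and MYC4 (AT4G17880) the differences of PMEIox from Col-0 were -0.14 and -0.15, and those of cnu1 from PMEIox 0.30 and 0.17.

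Of the 5 genes for breakdown and modification of the hormone, CYP94B3 (AT3G48520) was called. It encodes a cytochrome P450 that hydroxylates jasmonoyl-isoleucine and so lowers its activity. CYP94B3 stood at 7.01, 6.78 and 7.20 in Col-0, 7.47, 7.53 and 7.63 in PMEIox, 7.11, 7.01 and 6.86 in cnu1 and 7.40, 7.33 and 7.54 in cnu2. The cnu1 arrays lay within the range of Col-0, and the cnu2 arrays overlapped PMEIox and lay above Col-0 and cnu1. CYP94B3 rose by 0.55 ± 0.12 (SE, adjusted p = 0.0191) in PMEIox against Col-0 and fell by 0.55 ± 0.12 (SE, adjusted p = 0.0162) in cnu1 against PMEIox. Of all loci, 2.79% were called higher in PMEIox against Col-0 and 2.9% lower in cnu1 against PMEIox. In cnu2 CYP94B3 differed from PMEIox by -0.12 (95% interval -0.38 to 0.13) and from Col-0 by 0.42 (95% interval 0.16 to 0.68, adjusted p = 0.202). The direct difference of cnu1 from cnu2, -0.42 (95% interval -0.68 to -0.17), did not pass the test over all loci (adjusted p = 0.215). CYP94C1 (AT2G27690), which acts after CYP94B3, JMT (AT1G19640), a jasmonate methyltransferase gene, and AT5G05600, listed among the catabolism genes, differed between PMEIox and Col-0 by 0.07, -0.03 and -0.14. ST2A (AT5G07010), which encodes a sulfotransferase of hydroxyjasmonate, averaged 9.17 ± 0.18 in Col-0, 9.24 ± 0.11 in PMEIox, 9.52 ± 0.16 in cnu1 and 9.43 ± 0.08 in cnu2 (SD, n = 3 each), with a difference of cnu1 from Col-0 of 0.35 (adjusted p = 0.199).

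**Figure D2:**
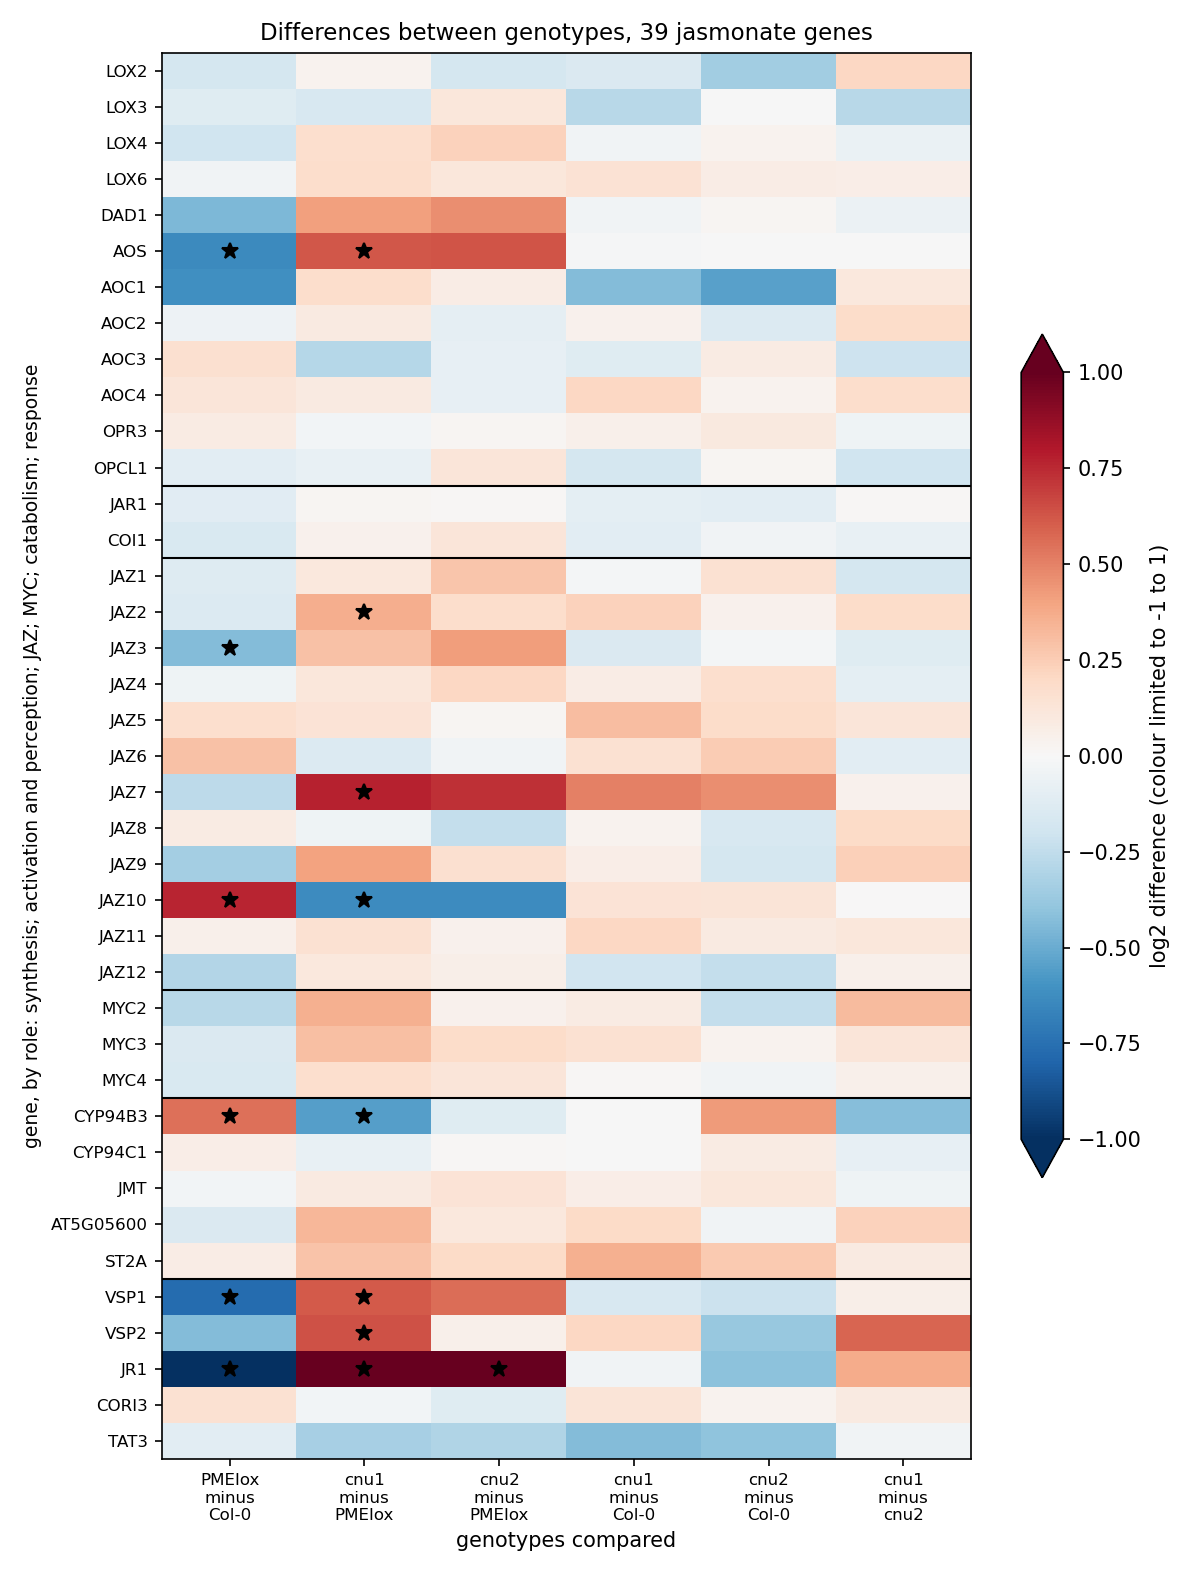
Log2 differences (colour) of the 39 jasmonate genes, ordered by role (rows), in 6 comparisons between genotypes (columns), with a star where the gene was called. Stars stand in the first 3 columns, 6 for PMEIox against Col-0, 8 for cnu1 against PMEIox and 1 for cnu2 against PMEIox, and none in the comparisons of a suppressor with Col-0 or between suppressors.

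The comparison of PMEIox with Col-0 asks which transcripts change with the transgene. Of the 39 members, 2 rose and 4 fell, where 2.79% of all loci were called higher and 2.46% lower. The median difference of the members was -0.12, against 0.00 over all loci. Of the 33 uncalled members, 5 had an unadjusted p under 0.05, namely DAD1, AOC1, JAZ6, JAZ12 and VSP2. That is 15.2%, close to the 14% of uncalled loci overall. Of the 6 calls, JR1 held in all 12 omissions of an array. AOS was lost without any one of the Col-0 arrays, PMEIox A or B or cnu1 B (adjusted p from 0.0506 to 0.113), JAZ3 in 10 omissions, all but those of cnu1 A and C (0.0501 to 0.149), and JAZ10 without Col-0 A or C or PMEIox C (0.0571 to 0.0622). CYP94B3 was lost without Col-0 A or B or PMEIox B or C (0.0533 to 0.078), and VSP1 without Col-0 B or C or PMEIox A or B (0.0622 to 0.0788). Without Col-0 A, calls over all loci went from 1460 to 1047. Among members 0 rose and VSP1 and JR1 fell, with VSP1 at -0.93 (adjusted p = 0.0083). The calls of AOS (-0.59, adjusted p = 0.106), JAZ3 (-0.49, 0.0501), JAZ10 (0.69, 0.0622) and CYP94B3 (0.56, 0.0533) then ended with their direction kept.

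The comparisons of each suppressor with PMEIox ask what the added mutation changes in the transgenic background. They share the PMEIox arrays with each other and with the comparison of PMEIox and Col-0, so that a deviation of PMEIox alone would appear in all of them. In cnu1, 6 of 39 members rose and 2 fell (3.54% and 2.9% of all loci, member median 0.11). Of the 31 uncalled members, 7 had an unadjusted p under 0.05 in cnu1, or 22.6%, beside 14.1% of uncalled loci overall. In cnu2, 1 rose and 0 fell (1.78% and 1.48% of all loci, so that 54.6% of the called loci were higher, or 40.6% with centring on reference genes, with a member median of 0.10), with 6 further members at an unadjusted p under 0.05, which were DAD1, AOS, JAZ3, JAZ7, JAZ10 and VSP1. These 6 are 15.8% of the uncalled members, close to the 14% of uncalled loci overall. Their log2 differences in cnu2 were 0.46, 0.62, 0.42, 0.73, -0.63 and 0.56, beside 0.41, 0.62, 0.29, 0.77, -0.63 and 0.61 in cnu1. None of these 6 was called between cnu1 and cnu2. With trend and robust settings in limma's variance step, AOS, JAZ3, JAZ7 and JAZ10 were called in cnu2, and 5 members in all, while calls over all loci went from 3.25% to 5.35%.

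JR1 held in every omission of an array in both suppressors, while the 7 other cnu1 calls each ended in at least 2 omissions. AOS was lost without PMEIox A or B or any cnu1 array (adjusted p from 0.0723 to 0.108), JAZ10 and VSP2 without any one of the PMEIox or cnu1 arrays (0.0673 to 0.13 and 0.051 to 0.11), and CYP94B3 without PMEIox C or cnu1 C (0.0686 to 0.0731). VSP1 was lost in 10 omissions, all but Col-0 A and B (0.0525 to 0.174), JAZ2 in 9, all but Col-0 A and C and cnu2 C (0.0509 to 0.133), and JAZ7 in 9, all but Col-0 A, PMEIox B and cnu2 B (0.051 to 0.163). Without cnu1 C, JR1 was the single member called, while calls over all loci fell from 1792 to 1061. JAZ2 and VSP1 were also lost when the arrays were centred on 10 reference genes, which moved the median of all loci by -0.04.

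**Figure D3:**
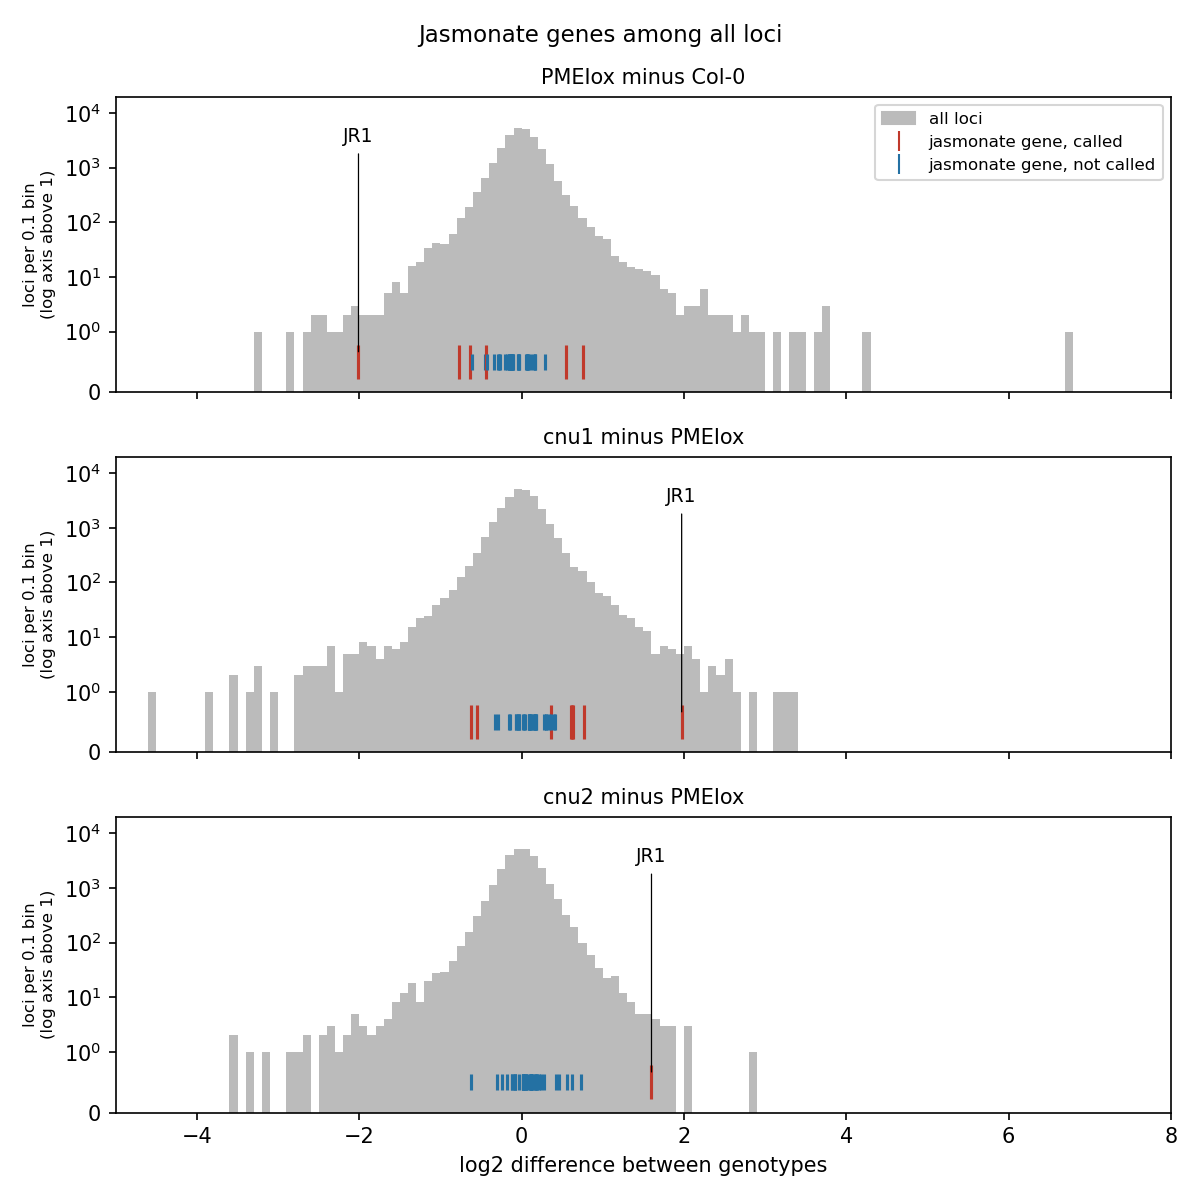
Distribution of log2 differences over all loci (grey, log axis above 1) in PMEIox against Col-0 and in each suppressor against PMEIox, with the jasmonate genes as ticks, red where called. JR1 stands far from the other members at -2.01, 1.97 and 1.60, and the other members lie between -0.77 and 0.77.

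The comparisons of each suppressor with Col-0, and of cnu1 with cnu2, ask how far the double lines differ from the wild type and from each other. In limma's test 0 of 39 members were called in each of these comparisons, in the fit reported and under every alternative run. The share of all loci called was 0.359% higher and 0.262% lower in cnu1 against Col-0, 0.108% and 0.0791% in cnu2 against Col-0, and 0.377% and 0.19% in cnu1 against cnu2. With centring on reference genes, the share of higher loci among those called moved from 57.8% to 40.1% in cnu1 against Col-0 and from 57.7% to 32.7% in cnu2 against Col-0. At an unadjusted p under 0.05 there were 6, 7 and 5 members, or 15.4%, 17.9% and 12.8%, where all loci gave 13.9%, 11.3% and 8.55%. JAZ7, ST2A and TAT3 were among them in both suppressors against Col-0. TAT3 differed by -0.44 in cnu1 and -0.40 in cnu2. In cnu1 against cnu2 they were LOX3 (-0.27), MYC2 (0.32), CYP94B3 (-0.42), VSP2 (0.58) and JR1 (0.37).

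Markers of other tissues and states moved with some of these differences. The 10 seed storage and oil body markers all rose in PMEIox, and their mean log2 level was 7.86 to 8.38 in PMEIox, 5.51 to 5.72 in Col-0, 5.28 to 5.74 in cnu1 and 5.43 to 6.21 in cnu2. The PMEIox arrays thus stood above all others in seed transcripts, and 9 of the 10 markers fell in each suppressor against PMEIox. Of 10 early wound and touch response genes, 1 rose in PMEIox against Col-0, the calmodulin-like gene TCH3 (0.72 ± 0.14 SE, adjusted p = 0.00916), which fell by 0.98 in cnu1 and by 0.64 in cnu2 against PMEIox, and none of the others was called in these comparisons in the fit reported. The mean level of that list was 5.57 to 5.73 in Col-0, 5.56 to 5.77 in PMEIox, 5.62 to 5.77 in cnu1 and 5.56 to 5.95 in cnu2, overlapping throughout. Of 4 genes of light-grown tissue, ELIP2, a gene induced early by light, fell by 1.08 in PMEIox against Col-0 and rose by 0.73 in cnu1 against PMEIox, and the others were not called there. Of 3 genes of etiolated seedlings, PIF3 fell by 0.36 in cnu1 against PMEIox. Without Col-0 A the 10 seed markers and TCH3 (0.62, adjusted p = 0.0392) were still called higher in PMEIox, while the cnu1 calls of ELIP2 and PIF3 were lost (adjusted p = 0.0584 and 0.0532). With the replicate block the ELIP2 call in cnu1 was lost too (adjusted p = 0.0587), PORA was called lower there, and TCH2, another calmodulin-like gene, was called higher in both suppressors against PMEIox, as was ZAT10, a zinc finger factor gene, in cnu2. The part of these transcripts in the jasmonate differences was not tested. Beside these counts, 2.79% of all loci were called higher and 2.46% lower in PMEIox against Col-0. The shares were 3.54% and 2.9% in cnu1 against PMEIox, and 1.78% and 1.48% in cnu2 against PMEIox.

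Other genes of the pathway, 38 in all, were read for comparison. In PMEIox against Col-0, 2 rose and 1 fell, beside 2.79% and 2.46% of all loci. MFP2, a peroxisomal beta-oxidation enzyme gene, rose by 0.38 ± 0.08 (SE, adjusted p = 0.0207), and RAP2.6, an ERF family factor gene known to respond to jasmonate, rose by 0.68 ± 0.13 (SE, adjusted p = 0.0109). IAR3, which encodes an amidohydrolase that can split jasmonoyl-isoleucine, fell by 0.38 ± 0.10 (SE, adjusted p = 0.0396). In cnu1 against PMEIox 1 rose and 4 fell, beside 3.54% and 2.9% of all loci. The rise was that of CYP94B1 at 0.68, a second hydroxylase gene of the hormone. The falls were those of MFP2 (-0.47), KAT2 (-0.38), the thiolase gene of beta-oxidation, JRG21 (-0.87), a jasmonate-regulated oxygenase gene, and RAP2.6 (-0.72). In cnu2 against PMEIox the chitinase gene CHIB rose by 0.57 and MFP2 fell by 0.41, where 1.78% of all loci rose and 1.48% fell. RAP2.6 and MFP2 in cnu1 held in all omissions of an array, as did RAP2.6 in PMEIox, and the other calls named here ended in 4 to 9 of the 12. In the fit of the compared genotypes alone, the RAP2.6 call in PMEIox was lost (adjusted p = 0.0608). Of the calls named here, those of RAP2.6 and MFP2 in cnu1 alone held in that fit. With the replicate block the calls of IAR3 in PMEIox (adjusted p = 0.0546) and JRG21 in cnu1 (adjusted p = 0.06) were also lost, as was that of CHIB in cnu2 with centring on reference genes. Without Col-0 A, 1 of the 38 was higher and 2 were lower in PMEIox against Col-0, namely RAP2.6 at 0.56 (adjusted p = 0.0424), HEL at -0.65 (0.0424) and CHIB at -0.56 (0.044), while MFP2 and IAR3 were no longer called (0.064 and 0.0919). The defensin gene PDF1.2A and the factor genes ORA59 and ERF1 of the branch shared with ethylene lay between 1.25 and 2.74 on all arrays, and the co-repressor genes NINJA and TPL differed by 0.06 and -0.18 in PMEIox against Col-0.

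JR1 belongs to the jacalin-related lectins, many of which lie next to it on chromosome 3, and its relatives were read beside it. Of 11 jacalin lectin, nitrile-specifier and ER body genes, 0 rose and 4 fell in PMEIox against Col-0 (median -0.36). The shares of all loci were 2.79% and 2.46%. In cnu1 against PMEIox 5 rose and 0 fell (median 0.33), beside 3.54% and 2.9% of all loci. In cnu2 against PMEIox 0 were called (median 0.17), beside 1.78% of all loci higher and 1.48% lower. At an unadjusted p under 0.05 there were 3, or 27.3%, beside 16.8% of all loci. JAL33 stood at 4.93, 5.30 and 5.26 in Col-0, 4.01, 4.54 and 4.28 in PMEIox, 5.06, 5.22 and 5.36 in cnu1 and 4.81, 4.83 and 4.51 in cnu2. It fell by 0.89 ± 0.15 (SE, adjusted p = 0.00505) in PMEIox and rose by 0.93 ± 0.15 (SE, adjusted p = 0.00298) in cnu1. NSP1, a nitrile-specifier gene with jacalin domains, fell by 0.79 ± 0.10 (SE, adjusted p = 0.000737) in PMEIox and rose by 0.62 in cnu1, with a cnu2 difference of 0.40 (adjusted p = 0.0551). JAL34 fell by 0.46 in PMEIox and rose by 0.49 in cnu1, and NAI2, an ER body gene outside this run of neighbours, fell by 0.43 and rose by 0.49, while JAL31 rose by 0.49 in cnu1. Calls of JAL33 and NSP1 held in every omission of an array, while those of JAL34 and NAI2 ended in 4 and 6 omissions in PMEIox and in 2 each in cnu1, and that of JAL31 in 9. Without Col-0 A, 3 of the 11 fell in PMEIox against Col-0, JAL33 (-1.01), JAL34 (-0.53) and NSP1 (-0.85), and NAI2 was not called (-0.47, adjusted p = 0.0552). MLP-300B was called higher there with the replicate block (adjusted p = 0.0321).

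The order of genes around JR1 was taken from the gene table, and a flank of 2 genes on each side was added after their values were seen. JR1 had the largest differences of the 14 neighbouring loci in PMEIox and both suppressors. JAL34, immediately beside JR1, moved by less than JAL33, the next gene, and MLP-300B, the one after that, differed by 0.51 in PMEIox (adjusted p = 0.0944), in the other direction. On the far side of JR1, MPPalpha differed by 0.13 and IQD26 by 0.37 in PMEIox, both uncalled, and IQD26 fell by 0.62 in cnu1 and by 0.58 in cnu2. Whether the differences follow position on the chromosome was not tested. Probe sequences were not used here, so that signal shared between lectin genes of similar sequence was not tested.

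**Figure D4:**
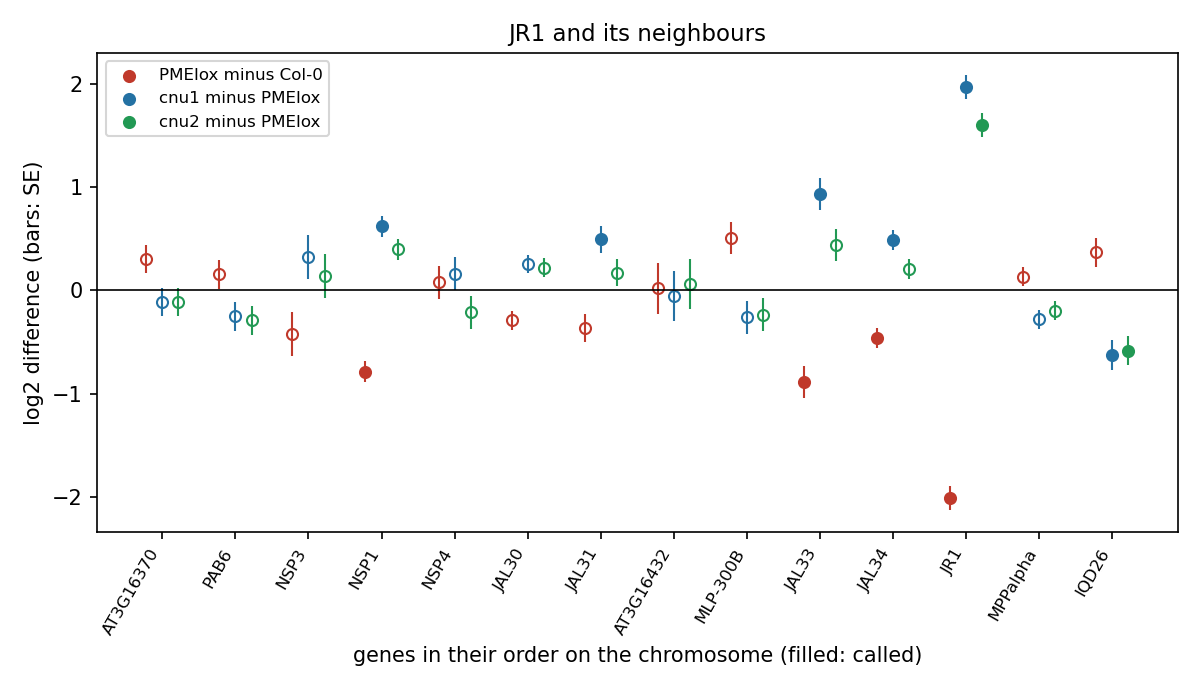
Log2 differences with standard errors (vertical axis) of 14 neighbouring genes in chromosome order (horizontal axis) in PMEIox against Col-0 and each suppressor against PMEIox, filled where called. JR1 has the largest values, -2.01, 1.97 and 1.60, and JAL33, JAL34 and NSP1 are called in PMEIox and cnu1.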

How the data were processed

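Total RNA of whole seedlings was made into biotin-labelled cRNA by the Affymetrix protocol, per the labels' protocols. Seedlings had 48 h of cold, 6 h of white light (100 µmol) and 4 days of darkness at 22 °C. The deposited value table gives log2 intensities, 1 per locus and array. The log base was read from the range of the values (0.785 to 13.9). Background correction, probe summary, software and genome build are not given in the sources used here. The sorted values of the 12 arrays were identical, so the authors had brought the arrays to a common distribution. There are no detection calls, and the number of arrays limits the precision.

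Group means of all 12 arrays were fitted with limma (version 3.58.1, R 4.3.3), with 8 residual and 4.06 prior degrees of freedom, over all 27827 loci, and two-sided p-values were adjusted by Benjamini-Hochberg. The text prints log2 differences of the first genotype minus the second, with SE or 95% intervals, and folds computed from them. The design text places the 3 biological replicates in successive weeks. The p-values set each difference of means against the spread between samples within a genotype, estimated over all 4 genotypes. The fit reported has no term for the week or the replicate letter. The labels do not say that a letter marks a week. Same-lettered arrays of different genotypes correlated over 0.1 in their deviations in 7 of 18 cases: all 3 for Col-0 with cnu2 (0.100 to 0.173), 2 of 3 for PMEIox with cnu2 (0.091 to 0.190), and 1 or 0 of 3 for the others (-0.137 to 0.131). The letters thus met the criterion for pairs (every correlation over 0.1) for Col-0 with cnu2, where the block changed no member call, and the block is given beside the results it changes.

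Symbols and gene order came from a RefSeq gene table (TAIR10.1) that matched 27241 loci. The members, lists, naming rule (all members by role, and up to 6 called genes of each other list) and alternatives were chosen with earlier results of these data known. The procedure was tested on simulated data. Plots were made in matplotlib 3.10.9.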

Additional observations from a re-analysis of the deposited data

How the results depend on the processing

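Over the 6 comparisons, 4134 values of single members were recomputed under 6 alternatives and 12 omissions of an array. In 4036 the gene stayed on its side of the threshold, in 84 a call was lost, in 14 a call was gained and in 0 the sign of a called gene turned. Part of this was fixed in advance. Repeating the quantile normalization, an alternative, could change nothing, because the sorted values of the 12 arrays were already identical. Omitting an array of a genotype outside a comparison left the difference itself unchanged and altered only the estimated spread. Among uncalled genes the sign differed in 164 values, all with reported differences of at most 0.21 in size. The 13 members within the lowest 40% of loci have no value without those loci. In PMEIox against Col-0 the 6 calls became 3 in the fit of these genotypes alone and 2 to 6 when an array was left out. Calls over all loci there went from 1460 to 868 and to 882 to 1480. In cnu1 against PMEIox the 8 calls became 4 in the fit of those genotypes alone and 1 to 8 on leaving out an array. Over all loci the 1792 calls became 1463 and 1061 to 1833. In cnu2 against PMEIox the 1 call became 2 with centring on reference genes, 6 without the lowest 40% of loci and 5 with trend and robust settings, and 1 to 2 on leaving out an array. Over all loci the 905 calls became 808 with centring, 1336 of the loci kept without the lowest 40% and 1490 with trend and robust settings. They became 395 to 874 on leaving out an array. The replicate block gave 6, 7 and 1 calls in these comparisons, beside 1596, 1871 and 975 over all loci. Among members it ended the call of JAZ2 in cnu1 (adjusted p = 0.0587). JR1 ranged from -2.12 to -1.94, from 1.90 to 2.04 and from 1.53 to 1.66. Centring on the reference genes moved the share of higher loci among all called from 53.1% to 44.7% in PMEIox, from 55% to 45.4% in cnu1 and from 54.6% to 40.6% in cnu2. The cause of lost and gained calls was not tested. Levels low on the scale, as for AOC2, JAZ8 and VSP2, limit what these arrays can show.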
